A study of Punica granatum with 4 samples.

Results

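Leaf transcripts of pomegranate (Punica granatum) under drought were compared between a library from plants sprayed with 90 µM abscisic acid (ABA) and a library from plants sprayed with distilled water, the 0 µM control. All plants were rooted cuttings of the strain labelled Hongmanao, genotype wt, aged 180 days per the labels, and both groups were held in soil at 30% to 35% of its field water capacity. The comparison is therefore between 2 drought-stressed groups, and no well-watered group enters it. Genes were taken into the comparison when they reached a CPM of at least 1 (CPM is a gene's count divided by the library total and multiplied by 1000000) in either library, as 18896 of the 27893 features in the count table did. Libraries from 30 and 60 µM ABA are quoted for context only.

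ABA is a hormone that accumulates in drying plant tissue. In Arabidopsis it is bound by soluble receptors that inhibit a family of protein phosphatases, which frees protein kinases to act on ion channels in guard cells and on transcription factors. Stomata then close, and genes for protective proteins and for sugar and lipid metabolism are switched. Genes of photosynthesis and growth are commonly reduced in the same setting. The pomegranate identifiers used here are paired with a feature class but not with a product name, so genes are given by identifier and class, and neither the leaf label nor any ABA pathway gene was checked against a marker.

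The control library held 22118468 counts and the 90 µM library 26590290, and 1 library stood for each dose. The labels do not say how many plants went into a library. No spread between plants could be measured, and no test of the dose was made. Each ratio below carries an exact 95% interval that covers counting error only. Counts were scaled with TMM factors (1.03 for the control and 0.940 at 90 µM), which correct library totals for their make-up. A gene was called higher when the interval of its scaled ratio lay wholly above 2 and lower when it lay wholly below 0.5. The rule on CPM was close for some genes: LOC116193069 stayed out with 22 control counts and 25 at 90 µM (0.995 and 0.940 CPM before TMM scaling), and LOC116195308 came in with 21 and 27 (0.949 and 1.02 CPM).

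At 90 µM, 722 genes were called higher and 779 lower, which were 3.82% and 4.12% of the 18896 genes and 7.94% together. Most of the transcriptome lay within 2-fold: for 14481 genes (76.6%) the whole interval fell between 0.5 and 2. For another 2914 genes the interval crossed a 2-fold limit, so that these counts could not place them. The calls were mostly of moderate size. Among genes with counts in both libraries, the median fold was 3.51 for genes called higher and 3.57 for genes called lower. Under 4-fold were 411 of the higher and 425 of the lower genes, while 88 and 91 were 10-fold or more apart. In leaf tissue, a lower level can come from fewer cells of a type or from less RNA per cell, and the 2 cannot be told apart here.

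The direction of the calls differed with expression level. Genes were placed in 8 bins by their mean scaled CPM over both libraries. For a gene with a large fold, the library in which it is higher largely sets this mean. With 0 counts in 1 library, the other sets it alone. In the 8729 genes under 20 CPM, 366 were called higher and 593 lower. In the 5428 genes at 50 CPM and over the balance was the other way, with 227 higher and 68 lower. Between 20 and 50 CPM the numbers were near each other, 129 and 118 of 4739 genes. All 277 calls under 2 CPM came from genes that reached 1 CPM in 1 library only, so that the filter bears on their number and balance. With 1 CPM required in both libraries, 0 of 530 genes were called under 2 CPM, and 204 of 7662 genes were called higher and 326 lower under 20 CPM. Higher calls made up 36.2% of all calls from 2 to 5, 40.4% from 5 to 10 and 42.5% from 10 to 20 CPM. They made up 71.7% from 50 to 100, 77.3% from 100 to 500 and 94.1% at 500 CPM and over.

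**Figure D1:**
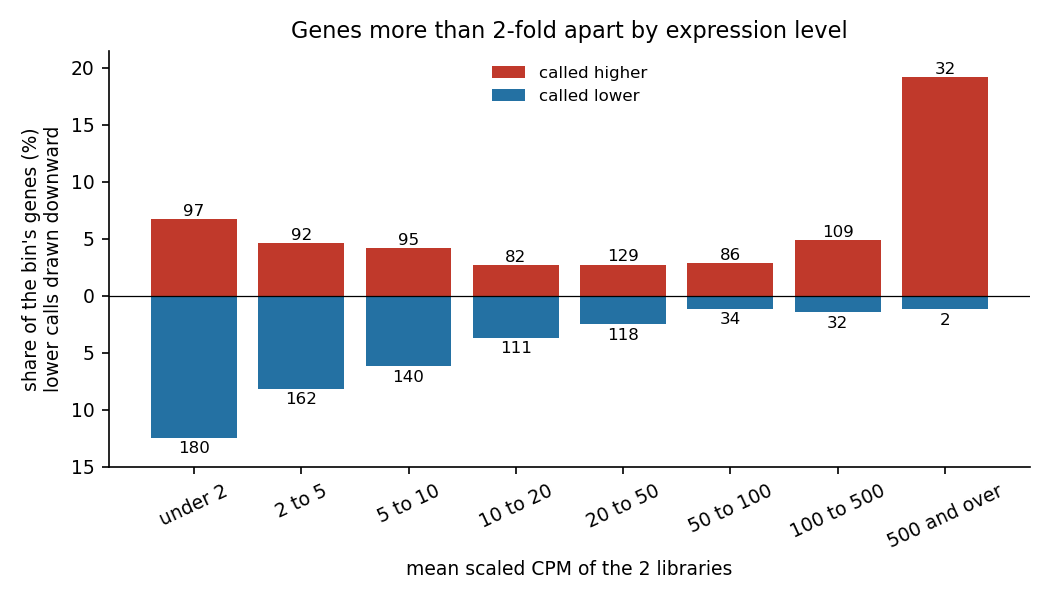
Share of the genes in each expression bin (mean scaled CPM of the 0 and 90 µM libraries) that were called higher, drawn upward, or lower, drawn downward, in percent, with the number of genes at each bar. Lower calls outnumber higher ones in the 4 bins under 20 CPM, of which the lowest has 0 calls when 1 CPM is required in both libraries. Higher calls outnumber lower ones from 50 CPM upward, most of all at 500 CPM and over with 32 against 2. That bin has 25 against 6 with column totals in place of TMM factors, and 14 against 11 with ratios centred on bin medians.

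The median log2 ratio over all genes of a bin, called or not, had a similar course. This ratio of 90 over 0 µM, computed with a prior count of 2, had a median of -0.34 in the bin under 2 CPM, -0.21 from 2 to 5, -0.16 from 5 to 10 and -0.08 from 10 to 20 CPM. It was 0.0045 from 20 to 50 CPM, 0.05 from 50 to 100, 0.10 from 100 to 500 and 0.37 at 500 CPM and over. The medians were higher in each bin than in the one below it. Over the genes that were not called, the median was -0.23 under 2 CPM, -0.17 from 2 to 5 CPM, 0.087 from 100 to 500 CPM and 0.15 at 500 CPM and over. Over all 18896 genes the median was -0.02. In the bin under 2 CPM 38.9% of genes lay above their control level, against 67.7% of the genes at 500 CPM and over.

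The zero point of these medians depends on how the libraries are scaled, and their order was kept under the 3 scalings tried. With column totals in place of TMM factors every ratio of scaled counts moves by -0.14 on the log2 scale, and log2 ratios of genes with few counts move by less because of the prior count. The medians from 20 to 50, 50 to 100 and 100 to 500 CPM become -0.13, -0.086 and -0.036. The gap between the median at 100 to 500 CPM and that at 2 to 5 CPM was 0.31 with TMM factors, 0.31 with column totals and 0.31 with DESeq2 size factors. The filter touches the lowest bin: with 1 CPM required in both libraries, 530 genes were left under 2 CPM and their median was 0.024. Calls by column totals were 314 higher and 757 lower under 20 CPM, and 175 higher and 101 lower at 50 CPM and over. At 500 CPM and over they were 25 higher and 6 lower. When bins were set from the 30 and 60 µM libraries, which do not enter the ratio, the calls were 375 higher and 586 lower under 20 CPM and 212 higher and 78 lower at 50 CPM and over.

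**Figure D2:**
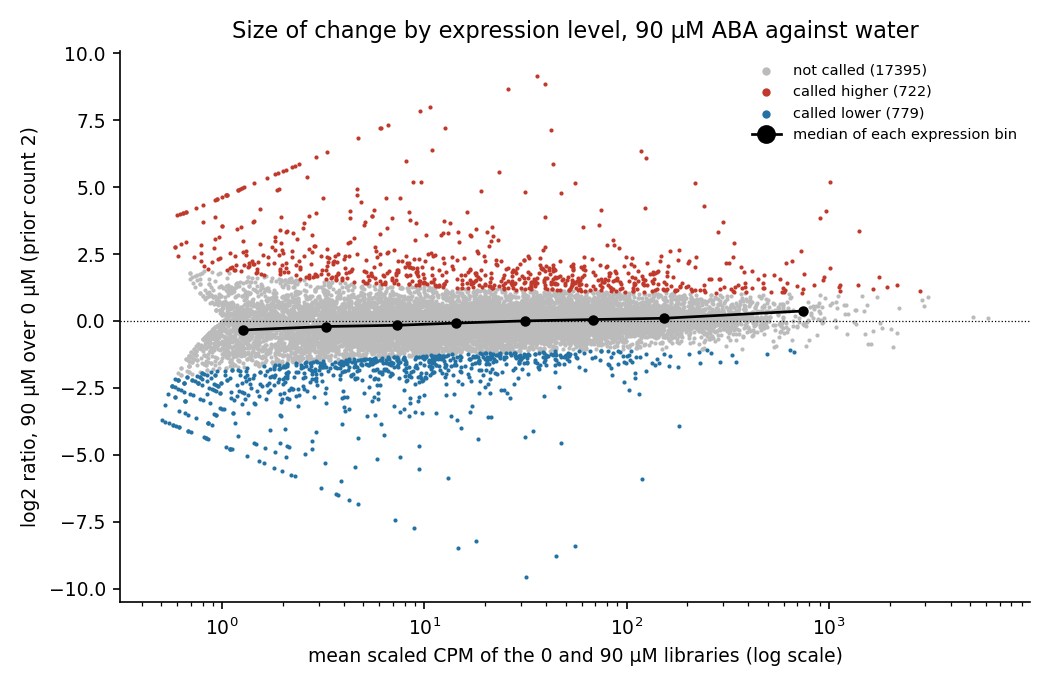
Log2 ratio of 90 µM over 0 µM (prior count 2) against the mean scaled CPM of both libraries on a log scale, 1 point per gene, with genes called higher in red, genes called lower in blue and the median of each expression bin as a black line. The line rises from -0.34 under 2 CPM to 0.37 at 500 CPM and over, and the straight rays of points at the outer left are genes with few or no counts in 1 of the libraries.

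The size of change, taken without its sign, was smallest at middle levels of expression. Its median in log2 units was 0.85 under 2 CPM and 0.56, 0.40, 0.27 and 0.21 in the following bins, reached 0.20 from 50 to 100 CPM, and rose to 0.24 from 100 to 500 CPM and 0.49 at 500 CPM and over. The share of genes called was 19.2% under 2 CPM, 12.8% from 2 to 5, 10.4% from 5 to 10 and 6.37% from 10 to 20 CPM. Its values at the low end were set in part by the filter, which keeps a weak gene when 1 library alone is high. With no filter 7.67% of 5359 genes were called under 2 CPM, fewer than from 2 to 5 CPM. With 1 CPM required in both libraries the shares were 0 of 530 under 2 CPM, 7.17% from 2 to 5 and 9.34% from 5 to 10 CPM, and the median size under 2 CPM was 0.34. With the filter as used, the lowest share was 3.97% from 50 to 100 CPM, after 5.21% from 20 to 50. From there the share rose to 6.31% from 100 to 500 CPM and 20.4% at 500 CPM and over, where 34 of 167 genes were called (exact binomial interval 14.5% to 27.3%). That interval treats genes as independent draws and does not cover differences between plants.

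Counting error behaved differently, since it only shrinks as counts grow. By formula, counting alone would give a median size of 0.24 under 2 CPM, 0.05 from 20 to 50 CPM and 0.01 at 500 CPM and over. The observed median was 3.51 times that value in the lowest bin, 4.25 times from 20 to 50 CPM, 10.5 times from 100 to 500 CPM and 47.5 times at 500 CPM and over. The formula takes no account of the filter, which bears on the lowest bin. With 1 CPM required in both libraries, the observed median there was 0.34 over 530 genes. With 1 library a dose, differences between plants, samplings or library preparations and any effect of ABA cannot be told apart in what lies above counting error.

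**Figure D3:**
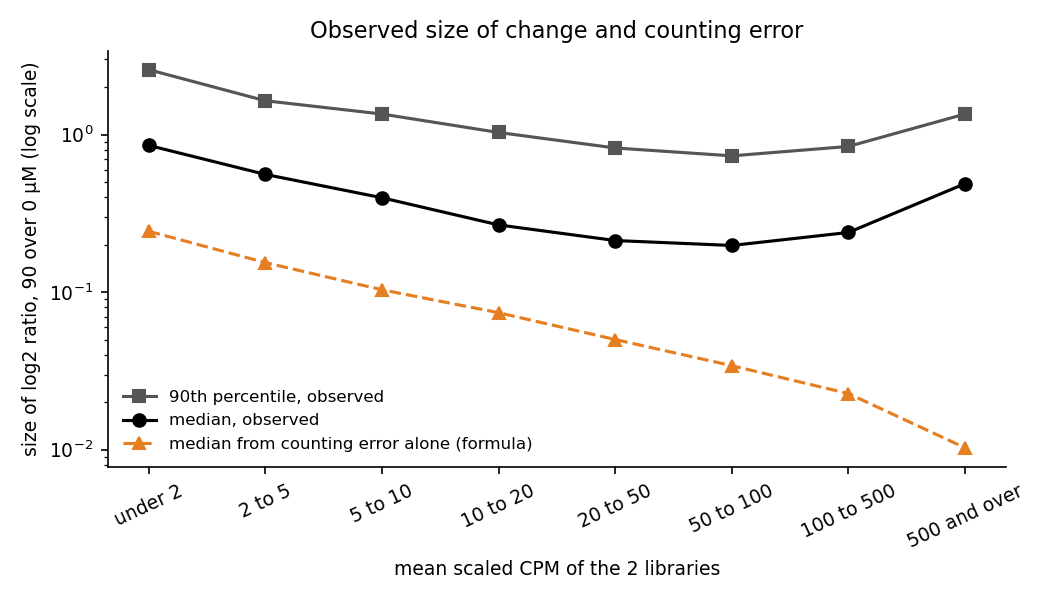
Size of the log2 ratio of 90 over 0 µM on a log scale for each expression bin: the observed median (circles), the observed 90th percentile (squares) and the median that counting error alone would give by formula (triangles). The observed median dips to 0.20 at 50 to 100 CPM and rises again to 0.49 in the top bin, while the counting line falls throughout to 0.01.

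Depth set which changes could be called. With the control count held at 28, from the middle of the lowest bin, a gene had to be at least 3.10-fold higher or 5.10-fold lower for a call. With 167 control counts, the middle of the bin from 5 to 10 CPM, 2.40-fold higher or 2.68-fold lower was enough. With 3511 counts, from 100 to 500 CPM, the limits were 2.08 and 2.12. Bins were set by the mean of both libraries, so a gene that changed this much from a fixed control count can lie in another bin. The limits therefore do not compare how readily higher and lower calls arise within a bin. Only 15.2% of genes under 2 CPM had an interval wholly within 2-fold, against 90.2% from 20 to 50 CPM and 93.5% from 50 to 100 CPM.

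With TMM factors and no centring by bin, higher calls were most frequent among the most abundant genes. Of the 167 at 500 CPM and over, 32 were called higher, all of them protein-coding, with folds from 2.07 to 36.9 and a median of 2.56. Together these 32 genes took 1.68% of all counts in the control and 4.63% at 90 µM, and they took 2.64% at 30 µM and 3.72% at 60 µM. The 2 called lower were LOC116190117, an rRNA feature, and the protein-coding LOC116188420, named here after its values were seen. LOC116188420 had 19941 counts in the control, 14355 at 30 µM, 50345 at 60 µM and 10243 at 90 µM. It was 2.13-fold lower at 90 µM (interval 2.08 to 2.18) although it was highest at 60 µM.

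LOC116194260 had the largest fold of the abundant genes. Its counts were 1223 in the control, 3052 at 30 µM, 72755 at 60 µM and 49386 at 90 µM. The 90 µM level was 36.9-fold above the control (interval 34.9 to 39.1), and the gene moved from rank 4910 to rank 15 among all features. It was low in the control and 30 µM libraries and high in the other 2. LOC116195363 had 5693, 10202, 67760 and 64049 counts at the rising doses, a 10.3-fold difference at 90 µM (interval 10.02 to 10.58) and a move from rank 536 to rank 11. It had the largest gain of any gene, 2314 scaled CPM. A further 2 of the abundant genes were more than 10-fold higher and are named after their values were seen. LOC116187230 had 2438 control counts and 45892 at 90 µM (17.2-fold, interval 16.5 to 17.9), and LOC116195364 had 2711 and 42395 (14.3-fold, interval 13.8 to 14.9).

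The other large gains came from genes that were already abundant. LOC116198126 had 1773 scaled CPM in the control and 3862 at 90 µM and was 2.18-fold higher (interval 2.15 to 2.20), a call that is lost with column totals. Its level was highest at 60 µM, at 4706 scaled CPM. LOC116195536 had 1244 scaled CPM in the control, 1601 at 30 µM, 897 at 60 µM and 3120 at 90 µM. It was 2.51-fold higher at 90 µM (interval 2.47 to 2.54), with the 60 µM library below the control. LOC116209490 gained 1828 scaled CPM but stayed under 2-fold, at 1.84 (interval 1.82 to 1.86), and was not called.

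Losses among abundant genes were smaller. The largest, 1334 scaled CPM, was that of LOC116205967, which went from 2749 to 1416 scaled CPM and from rank 3 to rank 36. Its ratio was 0.515 (interval 0.508 to 0.522), just short of a call with TMM factors and past it with column totals. LOC116204948 and LOC116196849, ranks 9 and 10 in the control, had ratios of 0.547 and 0.555 and took ranks 52 and 53 at 90 µM. LOC116212433 had a ratio of 0.729 (interval 0.721 to 0.738), and its lowest count, 33210, was at 60 µM. LOC116190117 lost 515 scaled CPM and was 2.24-fold lower (interval 2.19 to 2.30). As an rRNA feature it may share reads with near-identical copies, so its own level is uncertain.

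These shifts changed the make-up of the library. A share of counts needs no scaling factor, but the bins were set by scaled CPM. The top bin held 167 genes with TMM factors and 160 with column totals. Genes at 500 CPM and over held 14.5% of the control counts and 17.5% of those at 90 µM. The 4 bins under 20 CPM together held 7.48% of the control counts and 6.27% at 90 µM. Genes from 20 to 50 CPM went from 16.0% to 14.7% and genes from 50 to 100 CPM from 21.4% to 20.3%, while those from 100 to 500 CPM held 40.6% and 41.1%. Each exact binomial interval of these shares was at most 0.0409 percentage points wide, for counting error only. In the 30 and 60 µM libraries the same top bin held 14.8% and 15.3%, and the bins under 20 CPM held 7.28% and 7.64%. The bins were set from the 0 and 90 µM libraries, so the shares at 30 and 60 µM are not on an equal footing with these.

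**Figure D4:**
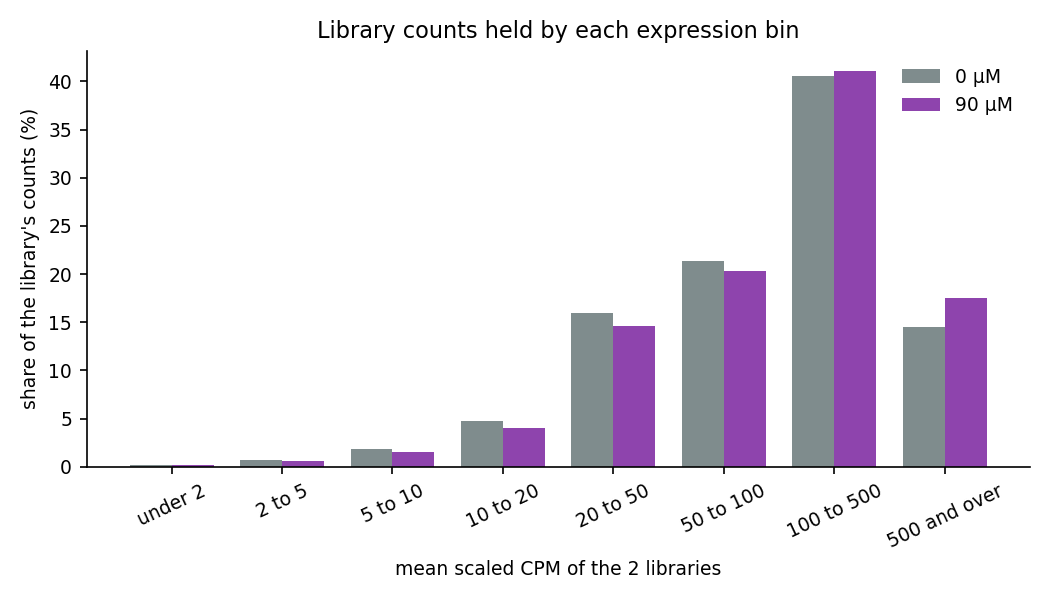
Share of each library's counts, in percent, held by the genes of each expression bin, in grey for 0 µM and in purple for 90 µM. The top bin goes from 14.5% to 17.5% while the bins from 10 to 100 CPM lose share, for example 16.0% to 14.7% at 20 to 50 CPM.

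The called genes and the most abundant features were set against the same totals. The 722 genes called higher took 3.44% of the control counts and 9.73% at 90 µM, and the 779 called lower took 2.54% and 0.769%. The direction of both changes follows from the call rule. Of the 100 most abundant features, 70 were shared by both libraries. Of the 30 that entered at 90 µM, 23 were called higher, and of the 30 that dropped out, 3 were called lower. Entry was set by a high count at 90 µM and exit by a high control count, which favours calls in these directions. Over all genes 3.82% were called higher and 4.12% lower, and at 500 CPM and over 19.2% and 1.20%. The top 100 held 11.5% of the control counts and 13.8% of those at 90 µM.

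Among genes of middle abundance, the gene called higher with the most extreme interval was taken from each bin. LOC116187191, from 100 to 500 CPM, had 63 counts in the control, 235 at 30 µM, 6912 at 60 µM and 5837 at 90 µM, which is 84.8-fold higher at 90 µM (interval 66.2 to 110.5). LOC116197585, from 50 to 100 CPM, had 67, 642, 1358 and 2703 counts and was 36.9-fold higher (interval 29.0 to 47.8). Its level was higher at each larger dose. LOC116208707, from 20 to 50 CPM, had 1, 281, 531 and 1809 counts. With 1 control count its ratio of 1655 is poorly bounded (interval 297 to 65407).

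The matching genes called lower had another pattern across the 4 libraries. LOC116199227, from 100 to 500 CPM, had 5360 counts in the control, 127 at 30 µM, 3286 at 60 µM and 97 at 90 µM, which is 60.4-fold lower at 90 µM (interval 49.4 to 74.6). LOC116213234, from 50 to 100 CPM, had 2527, 10, 5075 and 6 counts and was 460-fold lower (interval 211 to 1256). LOC116210933, from 20 to 50 CPM, had 1452, 0, 1740 and 0 counts and was at least 529-fold lower against a floor of 3 counts per library. In each of the 3 the control and 60 µM libraries were high and the 30 and 90 µM libraries low, so that they do not follow the order of doses.

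**Figure D5:**
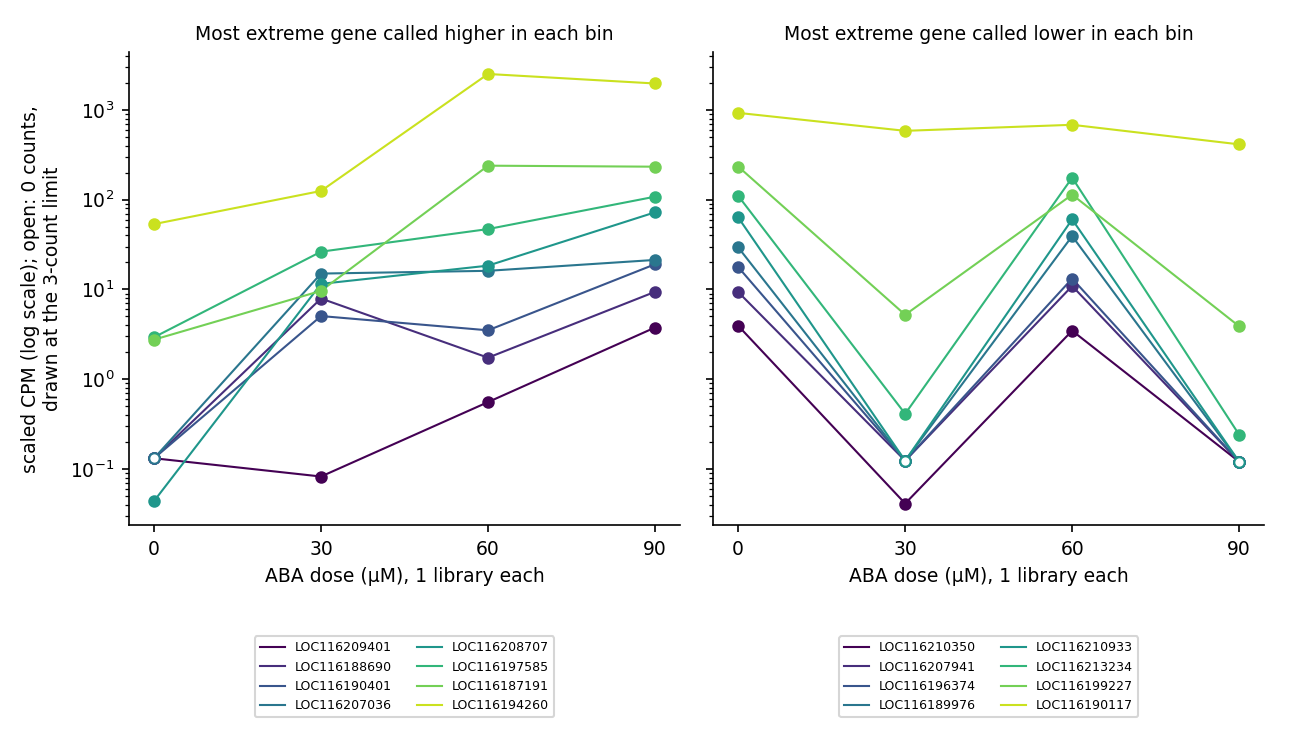
Scaled CPM on a log scale in the 4 libraries, 1 per dose, for the gene called higher (left) and the gene called lower (right) with the most extreme interval in each expression bin, with open circles for 0 counts drawn at the 3-count limit. On the left the 90 µM level lies above the control in every gene, and on the right 7 of the 8 genes are low at 30 and 90 µM and high at 0 and 60 µM.

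Toward the low end of expression the extreme genes were present in 1 library and unread in the other. From 10 to 20 CPM, LOC116207036 had 0 counts in the control and 366, 465 and 533 in the ABA libraries, at least 162-fold higher at 90 µM. From 5 to 10 CPM, LOC116190401 had 0, 123, 101 and 477 counts (at least 145-fold), and from 2 to 5 CPM LOC116188690 had 0, 193, 50 and 235 (at least 71-fold). All 3 had counts in every ABA library and none in the control. Under 2 CPM, LOC116209401 had 0, 2, 16 and 94 counts and was at least 28-fold higher. On the lower side LOC116189976 had 673, 0, 1133 and 0 counts (at least 245-fold lower), LOC116196374 had 406, 0, 381 and 0 (at least 147-fold) and LOC116207941 had 214, 0, 315 and 0 (at least 77-fold). The lowest bin was led by a lncRNA gene, LOC116210350, with 90, 1, 100 and 0 counts (at least 32-fold lower).

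Genes with 0 counts in 1 of the 2 libraries were few. There were 38 at 0 in the control and 36 at 0 at 90 µM, and their calls follow from the filter, which keeps such a gene only when the other library reaches 1 CPM. The 38 had a median of 62 counts at 90 µM and a highest count of 533, and the 36 had a median of 50 control counts and a highest of 1452. Of these 74 genes, 50 lay under 2 CPM, 25 in each direction. Genes that reached 1 CPM in the control only numbered 724, and those that reached it at 90 µM only numbered 351. The filter sets the direction of any call in both groups. Of the 724, 270 were called lower, and of the 351, 167 were called higher. These calls are part of the 779 lower and 722 higher calls given above.

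The feature class was compared within bins, because long non-coding RNA (lncRNA) genes are expressed at lower levels than protein-coding genes. Of 630 lncRNA genes 29 were called higher and 55 lower, 13.3% against 7.74% of the 18241 protein-coding genes. Their median levels were 2.80 and 24.4 scaled CPM. Under 2 CPM 20.7% of 222 lncRNA genes (interval 15.6% to 26.7%) and 19.0% of 1213 protein-coding genes were called, and from 2 to 5 CPM the shares were 11.8% of 203 (7.72% to 17.1%) and 12.9% of 1780. From 5 to 10 CPM 5.66% of 106 lncRNA genes (2.11% to 11.9%) and 10.6% of 2156 protein-coding genes were called. The median log2 ratios of the lncRNA genes in these 3 bins were -0.26, -0.21 and -0.19, beside -0.34, -0.20 and -0.16 for protein-coding genes. In these 3 bins, which hold 531 of the lncRNA genes, the share of protein-coding genes called lay inside the interval of the lncRNA share. These intervals treat genes as independent draws, which was not checked, and they are no test of class.

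Of all genes 4.12% were called lower, and 12.5% of those under 2 CPM. The share was 3.66% from 10 to 20 CPM and 2.49% from 20 to 50 CPM. It was 1.43% from 100 to 500 CPM and 1.20% at 500 CPM and over. The few small structural RNA genes are given beside these shares. Of the 11 rRNA features, which belong to the ribosome, 0 were called higher and 3 lower (LOC116190117, LOC116190112 and LOC116190196), with a median log2 ratio of -0.98. These 3 lay at 500 CPM and over, from 100 to 500 CPM and from 20 to 50 CPM, in that order. The rRNA features above 10 CPM had ratios between 0.370 and 0.518, and those under 5 CPM between 0.457 and 1.01. Of the 11 snoRNA genes, which guide chemical modification of rRNA, 0 were called higher and 2 lower, with a median log2 ratio of -0.84. Of these 11 genes 7 lay under 2 CPM. The 2 called lower were LOC116198344, from 10 to 20 CPM, and LOC116215762, under 2 CPM. LOC116198344 had a ratio of 0.413 (348 counts against 157 at 90 µM), and LOC116215762 had 23 and 2 counts. Of the 3 snRNA genes, parts of the splicing machinery, 0 were called in either direction, and LOC116193360 came nearest with 24 and 83 counts, a ratio of 3.16 (interval 1.99 to 5.21). The sources used here do not state whether poly(A) selection was used, and the part of RNA selection in these values was not tested.

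Called genes often lay next to genes called in the same direction. Positions were read only as the order of the 18718 kept genes that the RefSeq gene table places on chromosomes. Of 702 placed genes called higher, 147 (20.9%) had an adjacent gene called higher, against 6.74% of the genes not called and 5.28% of the genes called lower. Of 738 placed genes called lower, 147 (19.9%) had an adjacent gene called lower, against 7.18% of the genes not called and 5.70% of those called higher. Adjacent pairs numbered 81 with both higher, 83 with both lower and 40 in opposite directions. Adjacent genes can overlap or be near-identical copies that share reads, and the part of shared reads in these pairs was not tested.

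The longest run of adjacent kept genes called higher held 7 genes and the longest called lower held 6, both described after their values were seen. In the run of 7, LOC116211609 had 12 counts in the control, 2373 at 30 µM, 388 at 60 µM and 2109 at 90 µM, which is 161-fold higher at 90 µM (interval 91.9 to 312). Its neighbours LOC116211608 and LOC116211610 had 38 and 4 control counts and 581 and 400 at 90 µM. The 6 genes of the run with counts in both libraries were 7.32-fold to 161-fold higher, and LOC116210002 had 0 control counts and 47 at 90 µM. In the run of 6, LOC116207041 had 331, 174, 240 and 35 counts at the rising doses and LOC116207042 had 711, 343, 194 and 84. They were 10.3-fold and 9.25-fold lower at 90 µM, and the 4 genes between them were 2.72-fold to 4.36-fold lower. Each of the 6 had its lowest count at 90 µM.

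Some of the genes named above had a neighbour called in the same direction, given here after its values were seen. Next to LOC116187191 lay LOC116187190, with 270 control counts and 10646 at 90 µM, 36.1-fold higher (interval 32.0 to 40.9). Beside LOC116199227 lay LOC116199229, with 2780 and 996 counts, 3.05-fold lower. LOC116196376, beside LOC116196374, had 100, 0, 60 and 0 counts at the rising doses, the same alternation as its neighbour.

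The other libraries give a scale for the trend with expression level, with the reservation that the comparisons share libraries. From 2 to 5 CPM and from 100 to 500 CPM, the median log2 ratio was -0.21 and 0.10 for 90 over 0 µM. In bins with the same limits, it was -0.05 and 0.055 for 30 over 0 µM and -0.022 and -0.011 for 60 over 0 µM. Each comparison set its bins and its 1 CPM filter from its own libraries, so the genes in a bin differ between comparisons. With the 30 µM library as the base, 90 µM had medians of -0.13 and 0.076, and with the 60 µM library as the base -0.18 and 0.11. At 500 CPM and over the medians were 0.37 for 90 over 0 µM, 0.13 for 30 over 0 µM and 0.11 for 60 over 0 µM. They were 0.28 for 90 over 30 µM and 0.075 for 90 over 60 µM. The last lies below the 0.11 from 100 to 500 CPM. The lowest bin is not used here, because its median moves with the filter. The gap between the end bins for 90 over 0 µM went from 0.71 to 0.35 with 1 CPM required in both libraries and 0.50 with no filter. The gap between the bins from 2 to 5 and from 100 to 500 CPM was 0.31, 0.29 and 0.31 in these settings. It was 0.79 with 5 CPM required in either library, which left 449 genes from 2 to 5 CPM. Genes called higher at 90 µM had a median scaled CPM of 7.76 in the control, 12.7 at 30 µM, 17.7 at 60 µM and 30.5 at 90 µM. Genes called lower had 9.93, 5.38, 7.01 and 2.52. All kept genes had 22.96, 22.54, 22.92 and 22.65. Both called sets were chosen by their 0 and 90 µM counts, so the direction between these ends follows from the call rule. Levels of such sets in the other libraries tend to fall between the ends, and a graded response to dose was not tested. For the lower genes the 60 µM library was nearer the control than the 30 µM library was.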

How the data were processed

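RNA was sequenced from leaves, 1 library per dose of ABA. The authors deposited whole-number read counts for each gene, without normalization. FastQC, HISAT2 and featureCounts are named in the submitters' processing notes, while tool versions, a genome build, strandedness and the handling of multi-mapped reads were not given in the sources used here. Overlapping, antisense or near-identical genes may therefore share reads. Of the columns, 0 belonged to other samples. The 4 libraries held 22118468 to 28366719 counts.

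TMM factors came from edgeR 4.0.16 over the 4 libraries, and size factors from DESeq2 1.42.0 served as an alternative. Ratios and exact conditional binomial (Clopper-Pearson) 95% intervals were computed with SciPy 1.17.1. Intervals of ratios and of shares of counts, and the floor of 3 counts per library where a count was 0, cover counting error only. PCR copies are not independent molecules. Intervals of shares of genes treat genes as independent draws. With 1 library per dose there is no test. The call rule was tested on simulated data. Genes named were, in each bin, those called in each direction with the interval farthest from 1, and the 5 largest gains and losses in scaled CPM. Members, lists and rules were chosen with earlier results of these data known. All 18896 genes matched the RefSeq gene table of ASM765513v2, used for class and order. Protein signatures and promoter motifs planned for gene families were not analysed here.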

Additional observations from a re-analysis of the deposited data

How the results depend on the processing

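The numbers of genes called depended most on the threshold. They were 196 higher and 169 lower at 4-fold, and 1458 and 1686 at 1.5-fold. Requiring 1 CPM in both libraries left 555 higher and 509 lower, by construction fewer genes with a low level in 1 library. The split was 595 higher and 1013 lower with column totals. With each ratio centred on the median of its bin, an alternative chosen after seeing the data, it was 784 and 635. Under 20 CPM that gave 473 and 427, and at 50 CPM and over 182 and 89. At 500 CPM and over it gave 14 higher and 11 lower. The median size of change, 0.29, was 0.32 with column totals, 0.26 with 1 CPM in both libraries, 0.25 with 5 CPM in either and 0.34 with no filter. Alternatives for the bin medians were also chosen after seeing the data. With column totals the medians were -0.43, -0.34, -0.29 and -0.21 in the 4 bins under 20 CPM, and those of the next 3 changed sign, to -0.13, -0.086 and -0.036. With DESeq2 size factors these 3 were 0.019, 0.067 and 0.12. With 1 CPM required in both libraries the median under 2 CPM changed sign to 0.024, over 530 genes, since that filter drops genes low in 1 library. With bins set by the 30 and 60 µM libraries the median from 100 to 500 CPM was 0.083. Of the 24 genes named by rule, all kept their direction under both other scalings, LOC116198126 lost its call with column totals and LOC116205967 gained one. No paired analysis was possible because each dose had 1 library, and no library could be left out. The alternatives for protein signature families were not run.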

Other observations

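Of the 8997 features left out by the 1 CPM rule, 5082 had no count in either library and 3915 had at least 1. They held 22219 counts in the control (0.100% of the library) and 22091 at 90 µM (0.0831%). None had more than 26 counts in either library. By the same interval rule 54 of the 3915 lay above 2-fold at 90 µM and 80 lay below 0.5-fold.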
